A study of Homo sapiens with 9 samples.

Results

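The transcription factors examined here form the circuit that holds the identity of TAL1-positive T cell leukaemia. They are TAL1, its E protein partners TCF3 and TCF12, the bridging proteins LMO1 and LMO2, GATA3, RUNX1 and MYB, and the T lineage factors BCL11B and TCF7. Members were taken as every probe set whose platform annotation gave 1 of these 10 symbols and no other. The rule itself used no measured value, but the genes were chosen with earlier results of these data known. This gave 8 of the 10 genes, among 19775 genes named on the array, and 33 of its 54675 probe sets. RUNX1 was listed only together with 2 long non-coding loci, on 13 probe sets that were kept apart from the 33, and TCF7 was not analysed here. Human Jurkat T lymphocytes were measured in 3 groups with 3 arrays each. The nsEP group received 100 nanosecond electrical pulses of 10 ns at 150 kV/cm, the heat shock group was held at 44 °C for 40 min, and the sham group was handled like the nsEP group with no pulse delivered. All cells stood in electroporation cuvettes during exposure, and RNA was taken 4 h later. The titles name the arrays as biological replicates, all from 1 clonal line, so p-values measured the spread between exposures of that line.

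TAL1 is a basic helix-loop-helix factor that is silent in mature T cells and is switched on in one large class of T cell acute leukaemia. It binds DNA at E-box sequences as a dimer with an E protein, is held by LMO1 or LMO2 in a larger complex with GATA3, and occupies the same enhancers as RUNX1 and MYB. TAL1, GATA3, RUNX1 and MYB each bind their own regulatory DNA, and Jurkat is one of the lines in which this loop was described.

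The values were log2 MAS5 signals, a summary of the probes of a probe set after each array was scaled to a common trimmed mean. Probes differ in how brightly they bind, so levels were not compared between probe sets as amounts of RNA. The array median was 6.65 to 6.72 in heat shock, 6.25 to 6.43 in nsEP and 6.32 to 6.42 in sham. The poly-A spike-in controls averaged 11.23 to 11.82 in heat shock, 10.05 to 11.36 in nsEP and 9.92 to 10.90 in sham, so that the heat shock arrays stood above all sham arrays on both measures. All 12 measured T cell markers were above the background level in sham cells. Of the defining markers of other lineages, 2 of 5 B cell, 1 of 7 myeloid and 1 of 5 erythroid genes were above it. The nsEP array of replicate 3 stood apart on the second principal component, at 172.6 against -62.63 to 30.58 for the other 8 arrays.

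In sham cells, 24 of the 33 probe sets gave more signal than the 95th percentile of 107 olfactory receptor probe sets, which was 7.10 and served as the background level because lymphocytes do not use these genes. All 3 probe sets of GATA3, all 3 of BCL11B, both of MYB and the single probe set of LMO1 were above it. TAL1 had 3 of 4 above it, TCF12 had 3 of 4 and TCF3 had 9 of 14. Neither LMO2 probe set was, with sham means of 5.85 ± 0.38 and 4.12 ± 1.30 (SD, n = 3). LMO1 was only just above the background level at 7.54 ± 0.50, and 99.1% of the olfactory receptor probe sets lay below it. The brightest probe set reached 14.12 ± 0.04 for MYB, 13.51 ± 0.17 for TCF12, 12.79 ± 0.13 for BCL11B, 12.75 ± 0.16 for TAL1, 12.60 ± 0.13 for TCF3 and 12.39 ± 0.23 for GATA3. Of the 13 probe sets listed with RUNX1, 5 were above the background level, and the brightest gave 12.65 ± 0.27.

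**Figure D1:**
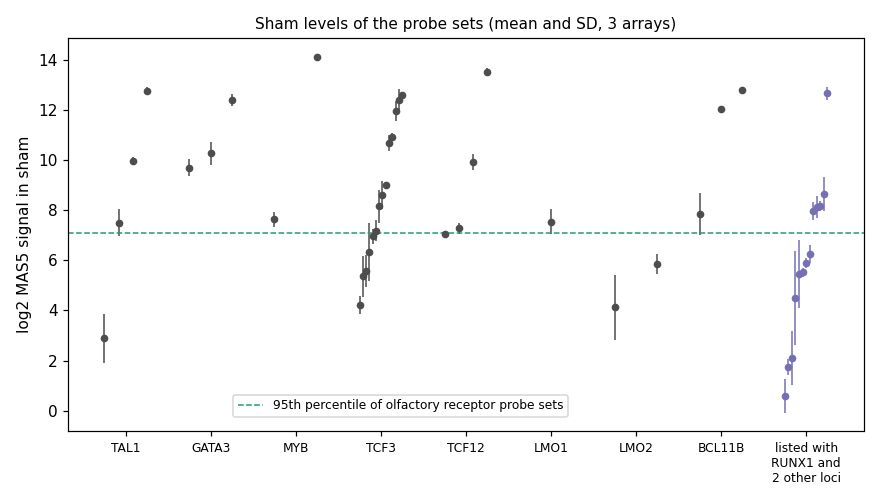
Mean log2 MAS5 signal of each probe set in sham cells (points, with SD over 3 arrays as bars), by gene, and the 95th percentile of olfactory receptor probe sets (dashed line, 7.10). Both LMO2 probe sets sit below the line at 5.85 and 4.12, while all probe sets of GATA3 and BCL11B sit above it.

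The first comparison asked what the electrical pulses did to the circuit 4 h later. None of the 33 probe sets was called in nsEP against sham by limma at an adjusted p under 0.05, where 0.0586% of all probe sets were called, which was 32 of 54613. At an unadjusted p under 0.05 there were 3 of the 33, against 3821 of all 54613. The methods' t-test with Benjamini-Hochberg adjustment called 0 of all 54613 probe sets in this comparison. Its 0 of the 33 therefore says nothing particular about these genes. The median log2 ratio was -0.04 over the 33 and -0.01 over all probe sets. The nsEP and sham arrays did not overlap for 4 of the 33, against 11.6% of all probe sets, and of these 1 was higher and 3 were lower in nsEP.

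The second comparison took heat shock, the thermal stress, against sham. Of the 33 probe sets 4 were called, 2 higher and 2 lower, or 12.1%. Over all probe sets, dim ones included, 4.17% were called. In a fit of only the brighter 27307 probe sets, 2717 were called. Of the 33, 17 lay in the brightest quartile of the array and 2 in the dimmest. The called members that fell belonged to TAL1 and BCL11B. Those that rose were annotated to MYB and TCF3, the second of which may read another gene. The median log2 ratio was 0.02 over the 33 and 0.18 over all probe sets. The latter depended on brightness, at 0.45, 0.36, 0.14 and -0.03 from the dimmest to the brightest quartile of mean signal. Heat shock and sham arrays did not overlap for 12 of the 33, 6 higher and 6 lower, against 26.5% of all probe sets. The split of calls depended on how the arrays were scaled. It was 1 higher and 2 lower after quantile normalization, where all probe sets gave 839 higher and 1234 lower. After centring on the array medians it was 0 higher and 6 lower, against 714 higher and 3857 lower over all. After scaling to the spike-ins it was 0 higher and 4 lower, against 153 higher and 3104 lower over all. That scaling moved the median of all probe sets to -0.83. The called TAL1 and BCL11B probe sets were lower under each of these scalings. Centring and the spike-ins lowered every ratio in this comparison by a common amount, so only quantile normalization could have changed that direction. Only the BCL11B call remained in all 6 fits that left out 1 array, and these fits called 1130 to 1421 of all probe sets. Limma without the variance trend and the methods' t-test each called 0 of the 33. Over all 54613 probe sets they called 837 and 377, where the main fit called 2276. The same sham arrays served both comparisons. The summed signal of the 7 measured myeloid markers, on the log2 scale, was 9.43 to 9.78 in heat shock and 8.74 to 8.88 in sham, with CD14 higher in heat shock at 7.07 against 2.29 in sham, both below the background level of 7.10. Of the 12 T cell markers 3 were called lower in heat shock against sham, TRAT1 at -2.16, CD2 at -1.79 and CD28 at -1.01. The others were not called, and their means went both ways. LCK, CD3D, ZAP70, CD7 and CD5 were higher in heat shock, and CD3E, CD3G, CD247 and LAT were lower. The median log2 ratio of the 12 was -0.09, and their summed signal was 16.03 to 16.43 in heat shock and 16.11 to 16.22 in sham. The part of these shifts in the results for heat shock was not tested.

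**Figure D2:**
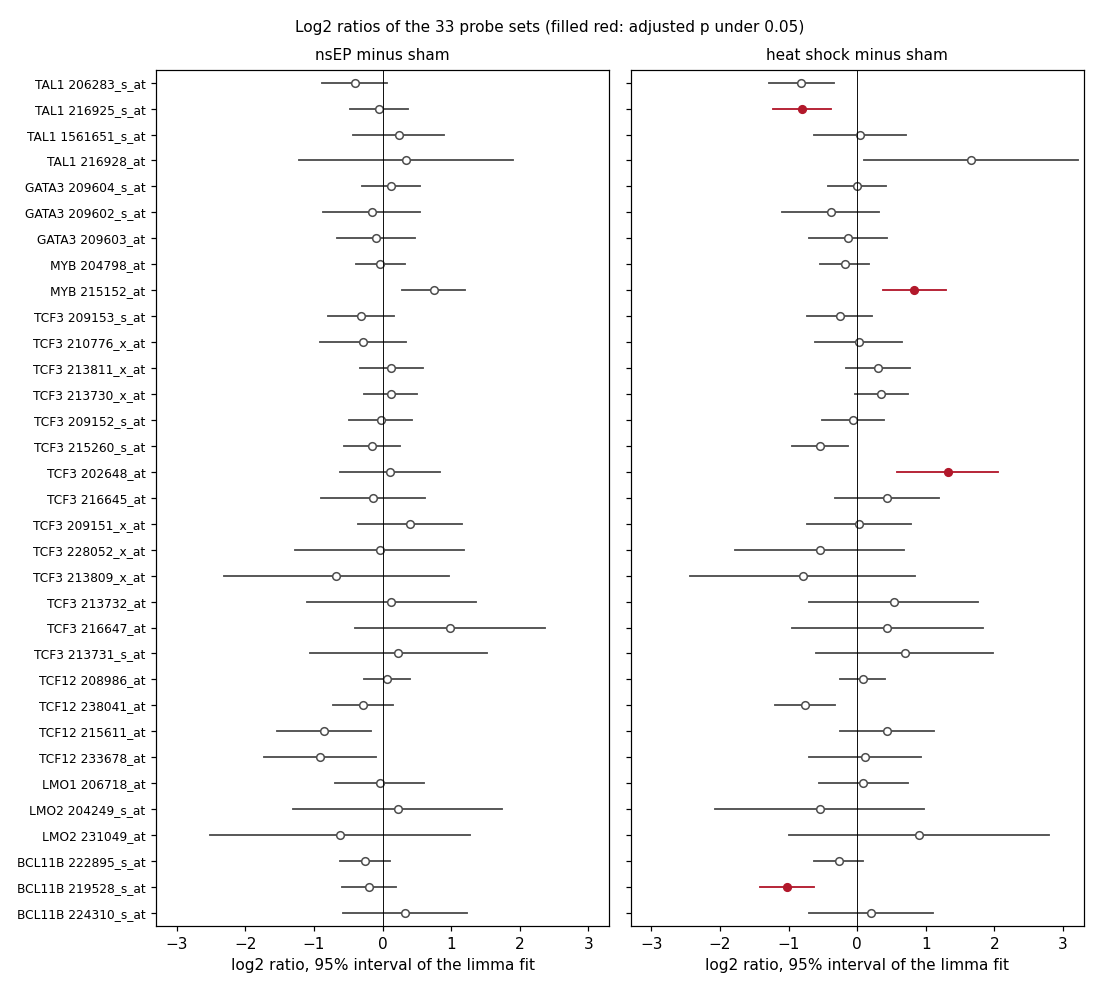
Log2 ratio (points) and 95% interval of the limma fit (lines) for each of the 33 probe sets, nsEP minus sham in the left panel and heat shock minus sham in the right panel, with filled red points for an adjusted p under 0.05. No point is filled for nsEP, and 4 are filled for heat shock. These are 216925_s_at of TAL1 at -0.80, 219528_s_at of BCL11B at -1.03, 215152_at of MYB at 0.83 and 202648_at at 1.32. The last is annotated to TCF3 but may read another gene.

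TAL1, the factor that gives this class of leukaemia its name, gave less signal after heat shock on both of its brighter probe sets. The probe set 216925_s_at gave 9.46, 10.15 and 10.09 in nsEP, 9.10, 9.20 and 9.16 in heat shock and 9.79, 9.98 and 10.09 in sham. Every heat shock array was below every sham array and every nsEP array. It fell by 0.80 on the log2 scale in heat shock against sham, with an SE of 0.19, or 1.74-fold (limma adjusted p = 0.0385). The brightest, 206283_s_at, gave 12.12, 12.48 and 12.43 in nsEP, 11.96, 12.42 and 11.43 in heat shock and 12.77, 12.90 and 12.58 in sham. All nsEP and all heat shock arrays lay below all sham arrays on it, and the heat shock arrays were widely spread. Its log2 ratio was -0.81 ± 0.22 (SE) in heat shock against sham, which did not pass the test (limma adjusted p = 0.0599), and -0.41 in nsEP against sham, with a 95% interval of -0.88 to 0.07. The probe set 206283_s_at was called in 1 of 6 fits that left out 1 array, without heat shock replicate 2, and over the 6 its adjusted p was 0.0195 to 0.195 and its log2 ratio -1.05 to -0.56. The call of 216925_s_at was lost in all 6 fits that left out 1 array, at adjusted p of 0.0677 to 0.129, while its log2 ratio stayed at -0.88 to -0.73. The 2 dimmer TAL1 probe sets were not called, with log2 ratios of 0.04 and 1.66 in heat shock against sham, and the second of them lay in the dimmest quartile of the array.

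The promoters of TAL1 are shown because the circuit is known as one in which the factors bind their own genes, and TAL1 was among those called. The RefSeq table (GRCh38.p14) held 2 start sites, both on chromosome 1 and on the minus strand, and the 250 bases before each are given with matches in capitals. Both strands were searched. The letters of the E-box were CANNTG. For GATA factors the letters AGATAA were used. For RUNX factors they were TGTGGT. MYB was searched as AACGG and as AACTG, and the heat shock element was searched by its usual repeat. At 250 bases, 61.8% of all 35116 promoters held an E-box, 9.17% the GATA letters, 10.98% the RUNX letters, 45.6% the MYB letters and 0.441% a heat shock element.
TAL1, chr1:47232336-47232585: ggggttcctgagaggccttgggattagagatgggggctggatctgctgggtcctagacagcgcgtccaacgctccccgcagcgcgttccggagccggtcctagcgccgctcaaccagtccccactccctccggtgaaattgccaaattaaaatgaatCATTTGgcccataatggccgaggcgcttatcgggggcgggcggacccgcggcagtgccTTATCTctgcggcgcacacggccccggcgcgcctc
TAL1, chr1:47231716-47231965: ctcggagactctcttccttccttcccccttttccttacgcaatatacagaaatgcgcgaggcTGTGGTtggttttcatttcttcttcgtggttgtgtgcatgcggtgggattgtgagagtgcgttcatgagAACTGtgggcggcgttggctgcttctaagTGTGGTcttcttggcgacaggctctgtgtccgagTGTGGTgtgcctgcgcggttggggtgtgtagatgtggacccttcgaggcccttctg
The first held 1 E-box that began 93 bases before the start and 1 GATA match, read on the other strand, that began 35 bases before it. The second held 3 RUNX matches, at 188, 90 and 56 bases before the start, and 1 MYB match at 119 bases. At least 3 RUNX matches were found in 27 of the 35116 promoters. Such matches describe letters in a window and do not show binding, and neither window held a heat shock element.

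The E proteins TCF3, which encodes E12 and E47, and TCF12, which encodes HEB, are the broadly expressed dimer partners of TAL1. For the brightest TCF3 probe set, 209153_s_at, the signal was 11.94, 12.10 and 12.82 in nsEP, 12.03, 12.47 and 12.53 in heat shock and 12.68, 12.66 and 12.45 in sham. The groups overlapped, and neither comparison passed, with log2 ratios of -0.31 in nsEP against sham (95% interval -0.79 to 0.16) and -0.25 in heat shock against sham (95% interval -0.73 to 0.22). Of the 14 TCF3 probe sets, 1 was called. This was 202648_at, at 8.18, 8.41 and 9.55 in nsEP, 10.01, 9.88 and 9.91 in heat shock and 8.95, 7.96 and 8.91 in sham. All heat shock arrays were above all sham and nsEP arrays, and the log2 ratio of heat shock to sham was 1.32 ± 0.34 (SE; limma adjusted p = 0.0479). That call was lost in all 6 fits that left out 1 array, and the log2 ratio was 0.31 after scaling to the spike-ins. The other 13 TCF3 probe sets had log2 ratios of -0.79 to 0.70 in heat shock against sham, with a smallest adjusted p of 0.139, so 202648_at stood alone. Which transcript it reads was not settled here, and it may be that of another gene.

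TCF12 gave 13.46, 13.49 and 13.76 in nsEP, 13.63, 13.49 and 13.63 in heat shock and 13.48, 13.35 and 13.68 in sham on its brightest probe set, 208986_at. The 3 groups lay on top of each other, with log2 ratios of 0.06 in nsEP against sham (95% interval -0.27 to 0.39) and 0.08 in heat shock against sham (95% interval -0.25 to 0.41). The dimmer 215611_at gave 6.85, 6.44 and 5.995 in nsEP, 7.59, 7.49 and 8.07 in heat shock and 7.46, 7.35 and 7.04 in sham. On it all nsEP arrays were the lowest and all heat shock arrays the highest. It was lower in nsEP than in heat shock by a log2 ratio of -1.29 ± 0.32 (SE; limma adjusted p = 0.0357), while nsEP against sham gave -0.85 (adjusted p = 0.596) and heat shock against sham 0.44 (adjusted p = 0.509). The call between nsEP and heat shock was kept in 1 of 6 fits that left out 1 array. The nsEP mean of 6.43 was below the background level of 7.10. For 238041_at, also of TCF12, the log2 ratio of heat shock to sham was -0.76 with an adjusted p of 0.0576, and for 233678_at that of nsEP to sham was -0.92 with an adjusted p of 0.650, and neither passed.

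LMO1 and LMO2 are LIM-only proteins that bind no DNA themselves and bridge TAL1 to GATA factors through LDB1. LMO1 gave 7.69, 7.12 and 7.70 in nsEP, 7.71, 7.66 and 7.53 in heat shock and 7.99, 7.63 and 7.0 in sham on 206718_at. The groups overlapped, with log2 ratios of -0.04 in nsEP against sham (95% interval -0.69 to 0.61) and 0.09 in heat shock against sham (95% interval -0.56 to 0.74). The brighter LMO2 probe set, 204249_s_at, gave 6.07, 6.53 and 5.61 in nsEP, 3.75, 5.14 and 7.02 in heat shock and 5.58, 6.29 and 5.68 in sham. All of these LMO2 values were below the background level, and the heat shock arrays spanned the values of both other groups. Its log2 ratio of heat shock to sham had a 95% interval of -2.07 to 0.98, so that a change of several-fold would not have been detectable at this signal.

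GATA3, a zinc finger factor needed for T cell development and a partner of TAL1 at its enhancers, had no called probe set. The brightest, 209604_s_at, gave 12.16, 12.66 and 12.73 in nsEP, 12.12, 12.64 and 12.41 in heat shock and 12.14, 12.60 and 12.42 in sham. The groups covered the same range, with log2 ratios of 0.13 in nsEP against sham (95% interval -0.30 to 0.55) and 0.00 in heat shock against sham (95% interval -0.42 to 0.43). The other 2 GATA3 probe sets gave -0.15 and -0.10 in nsEP against sham and -0.38 and -0.14 in heat shock against sham.

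MYB, a factor of immature blood cells and a driver of leukaemic growth, gave different answers on its 2 probe sets. The brighter, 204798_at, built on a RefSeq transcript of the gene, gave 13.83, 14.13 and 14.28 in nsEP, 13.73, 13.99 and 14.07 in heat shock and 14.08, 14.10 and 14.16 in sham. All heat shock arrays were just below all sham arrays, but the log2 ratio of -0.18 did not pass the test (limma adjusted p = 0.606, 95% interval -0.54 to 0.17), and nsEP against sham gave -0.03 (95% interval -0.39 to 0.32). The dimmer 215152_at gave 8.30, 8.33 and 8.49 in nsEP, 8.43, 8.49 and 8.47 in heat shock and 7.94, 7.37 and 7.58 in sham. Here every nsEP and every heat shock array was above every sham array. It rose in heat shock against sham by 0.83 ± 0.21 (log2 ratio and SE; limma adjusted p = 0.0467), but the direction turned to -0.18 when arrays were scaled to the spike-ins, and the call was kept in 1 of 6 fits that left out 1 array. In nsEP against sham the log2 ratio of 215152_at was 0.74 at an unadjusted p of 0.00409, the smallest among the 33, and the limma adjusted p was 0.411.

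RUNX1, the core-binding factor subunit that contacts DNA, could be read only through probe sets listed with it and the 2 other loci. These are LOC100506403 and LOC101928269, which lie on chromosome 21 like RUNX1 itself. Of the 13 probe sets, 0 were called in nsEP against sham, where 1 was at an unadjusted p under 0.05, 1 was called lower in heat shock against sham, and 1 was called lower in nsEP against heat shock. Each is 7.69% of the 13, where 4.17% and 4.96% of all probe sets were called in these comparisons. The brightest, 209360_s_at, gave 12.01, 12.85 and 12.20 in nsEP, 11.02, 12.13 and 11.38 in heat shock and 12.57, 12.96 and 12.43 in sham. All heat shock arrays were below all sham arrays, and it fell by 1.15 on the log2 scale in heat shock against sham, with an SE of 0.28, or 2.21-fold (limma adjusted p = 0.0382). The call was kept in 1 of 6 fits that left out 1 array, at adjusted p of 0.0121 to 0.158. The probe set 208129_x_at, built on a RefSeq transcript of RUNX1 and named here for that reason, gave 8.08, 7.99 and 8.44 in nsEP, 8.31, 8.26 and 8.45 in heat shock and 8.38, 8.05 and 8.01 in sham. Its groups overlapped, and its log2 ratio was 0.19 in heat shock against sham (95% interval -0.27 to 0.66). Also above the background level in sham, 210365_at, 209359_x_at and 211180_x_at gave 0.20, 0.17 and -0.03 in that comparison and were not called. The fall was thus seen only on 209360_s_at among the 5 above that level. The call in nsEP against heat shock, 1563591_at, lay in the dimmest quartile, at 1.89, -1.32 and 2.93 in nsEP, 5.30, 5.08 and 5.08 in heat shock and 1.26, 3.32 and 1.77 in sham. All of these values were below the background level of 7.10, and the log2 ratio was -3.99 ± 1.01 (SE; limma adjusted p = 0.0418).

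BCL11B, a zinc finger factor that commits progenitors to the T lineage, was the member whose call in heat shock against sham remained in every fit that left out 1 array. The probe set 219528_s_at, built on a RefSeq transcript of the gene, gave 11.85, 12.07 and 11.58 in nsEP, 10.72, 11.35 and 10.96 in heat shock and 11.95, 12.13 and 12.03 in sham. Every heat shock array was below every sham and nsEP array. It fell by 1.03 on the log2 scale in heat shock against sham, with an SE of 0.18, or 2.04-fold (limma adjusted p = 0.00681), and was called in all 6 fits that left out 1 array, at adjusted p of 0.00574 to 0.0412. In nsEP against sham its log2 ratio was -0.20, with a 95% interval of -0.60 to 0.19. The brightest BCL11B probe set, 222895_s_at, gave 12.59, 12.28 and 12.74 in nsEP, 12.30, 12.56 and 12.70 in heat shock and 12.91, 12.66 and 12.79 in sham. These groups overlapped, and its log2 ratio of heat shock to sham was -0.27 (limma adjusted p = 0.421, 95% interval -0.63 to 0.09). The third, 224310_s_at, gave 0.20 with an adjusted p of 0.842, so 1 of the 3 BCL11B probe sets carried the change. A fall in signal in such bulk RNA cannot be told apart from fewer cells of one kind.

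The 250 bases before the BCL11B start site, on the minus strand of chromosome 14 in the same RefSeq table, are shown because this call was kept in those fits, with the same letters in capitals.
BCL11B, chr14:99272198-99272447: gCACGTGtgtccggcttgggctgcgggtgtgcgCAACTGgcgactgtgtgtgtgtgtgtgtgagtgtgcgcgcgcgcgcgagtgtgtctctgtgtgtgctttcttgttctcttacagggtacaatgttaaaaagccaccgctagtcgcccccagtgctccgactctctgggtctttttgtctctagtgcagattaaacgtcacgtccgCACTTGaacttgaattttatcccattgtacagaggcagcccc
It held 3 E-boxes that began 249, 217 and 42 bases before the start, and a MYB match that overlapped the second E-box. At least 3 E-boxes were found in 10.4% of all promoters, and no heat shock element was found in this window.

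**Figure D3:**
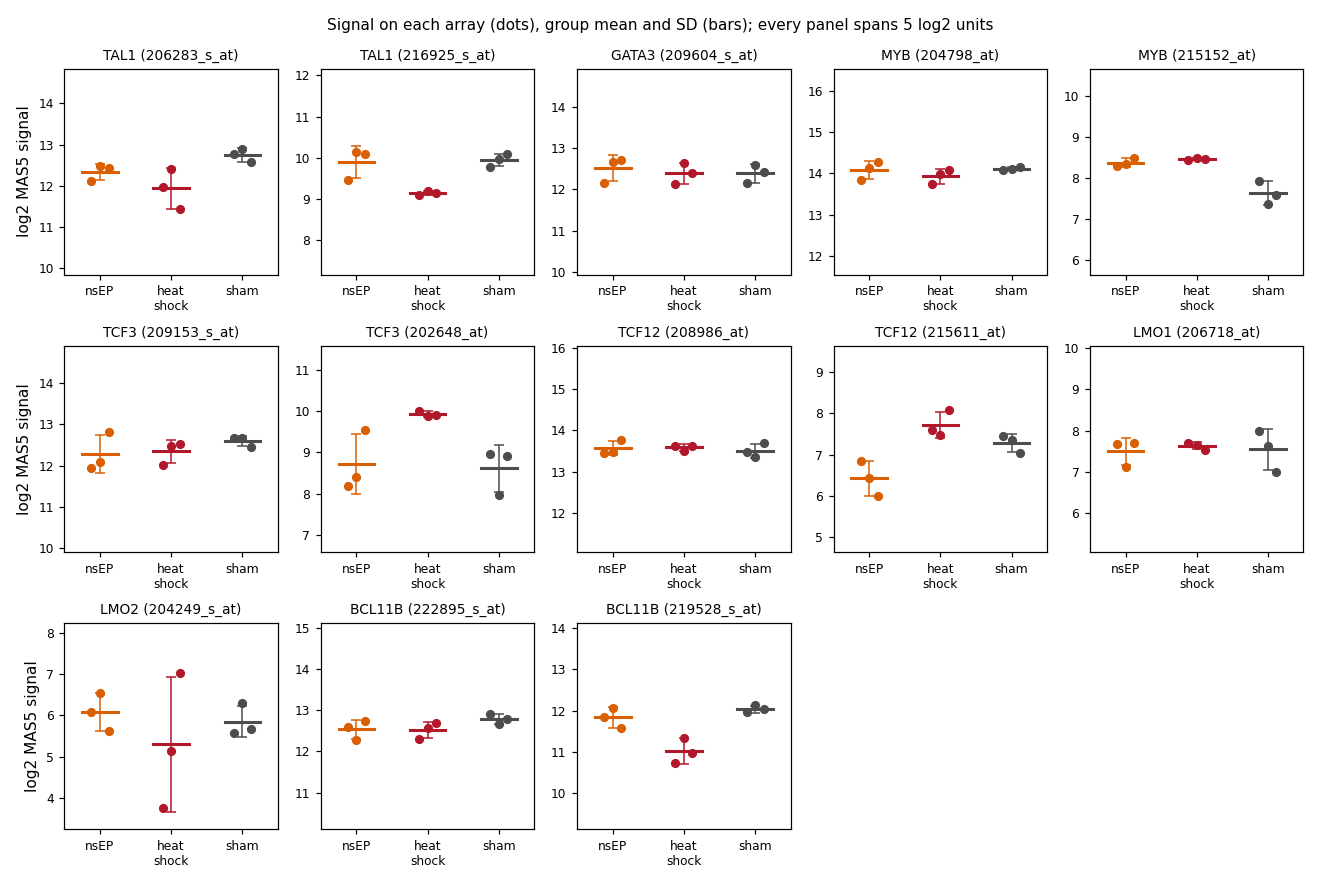
Log2 MAS5 signal on each array (dots) with the group mean and SD (bars, n = 3) for 13 probe sets, ordered nsEP, heat shock and sham, each panel spanning 5 log2 units. In 216925_s_at of TAL1 and 219528_s_at of BCL11B the heat shock arrays sit below all others, at means of 9.15 and 11.01 against 9.95 and 12.04 in sham, while GATA3 at 12.39 in both groups does not separate.

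Set against each other, nsEP and heat shock differed in 3 of the 33 probe sets, or 9.09%. Over all probe sets, dim ones included, 4.96% were called, and in the fit of only the brighter 27307, 3177 were called. For the 3 called members, the signal in nsEP was higher on 2 and lower on 1. BCL11B 219528_s_at was higher in nsEP than in heat shock by a log2 ratio of 0.82 ± 0.18 (SE; limma adjusted p = 0.0209) and TAL1 216925_s_at by 0.75 ± 0.19 (SE; limma adjusted p = 0.0469), and TCF12 215611_at was the one lower in nsEP. The arrays of nsEP and heat shock did not overlap for 7 of the 33, or 21.2%, against 23.1% of all probe sets. The median log2 ratio was 0.04 over the 33 and -0.18 over all probe sets, and over all probe sets it ran from -0.40 in the dimmest quartile to 0.03 in the brightest. With other scalings the calls were 1 higher and 0 lower after quantile normalization, against 1240 higher and 1121 lower over all probe sets. They were 4 higher and 0 lower after centring on the array medians, against 3819 higher and 973 lower over all. After scaling to the spike-ins they were 2 higher and 0 lower, against 1483 higher and 135 lower over all. Leaving out 1 array kept the BCL11B call in 2 of 6 fits and the TAL1 call in 1 of 6.

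Partners of the circuit were called in heat shock against sham, and none was in nsEP against sham. They were 35 genes for proteins that bind or modulate the TAL1 and E protein complex, or that are related factors of T cells, each read at its brightest probe set. Of the 35, 1 was at an unadjusted p under 0.05 in nsEP against sham, with 0 called by limma. In heat shock against sham 6 were called, 2 higher and 4 lower, where 4.17% of all probe sets were called, dim ones included. In the fit of only the brighter 27307 probe sets, 2717 were called. The median log2 ratio of the 35 was -0.08 in nsEP against sham, against -0.01 over all probe sets. In heat shock against sham it was -0.08, against 0.18 over all probe sets and -0.03 over the brightest quartile. ID2, which lacks a DNA-binding region and holds E proteins off DNA, gave 9.89, 9.10 and 8.78 in nsEP, 13.76, 13.81 and 14.03 in heat shock and 8.71, 8.13 and 8.51 in sham. Its heat shock arrays stood far above all others, and it rose by 5.42 ± 0.25 (log2 ratio and SE; limma adjusted p = 1.03e-07) in heat shock against sham, on both of its probe sets. All 3 nsEP arrays were also above all sham arrays for ID2, with a log2 ratio of 0.81 that did not pass (adjusted p = 0.490).

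ID3, of the same inhibitor family, went the other way after heat shock. It gave 11.28, 10.92 and 11.15 in nsEP, 10.22, 9.66 and 10.32 in heat shock and 11.35, 10.95 and 11.93 in sham, and fell by 1.34 on the log2 scale in heat shock against sham (limma adjusted p = 0.00791). SSBP2, a single-stranded DNA binding protein that stabilises LDB1, gave 12.84, 12.68 and 12.93 in nsEP, 11.77, 11.16 and 11.39 in heat shock and 12.82, 12.63 and 12.68 in sham. It fell by 1.27 on the log2 scale in heat shock against sham (limma adjusted p = 0.000979), and 2 of its 6 probe sets were called. GATA2, the GATA factor of blood stem cells, gave 7.62, 7.07 and 7.29 in nsEP, 8.13, 8.98 and 8.91 in heat shock and 7.59, 7.28 and 7.30 in sham. Every heat shock array was above every sham array, and it rose by a log2 ratio of 1.29 (limma adjusted p = 0.0217). This was kept in only 2 of 6 fits that left out 1 array, and its log2 ratio was 0.28 after scaling to the spike-ins. Only 1 of the 3 GATA2 probe sets was called, and their log2 ratios were 0.38 to 1.29. The remaining calls were TOX at -1.01 and RUNX2 at -1.03 in heat shock against sham. The 2 TOX probe sets gave -1.01 and -0.51, of which 1 was called, and the 6 RUNX2 probe sets ranged from -1.03 to 1.71. In nsEP against heat shock 6 partners were called, 4 higher and 2 lower, where 4.96% of all probe sets were called, dim ones included. In the fit of only the brighter 27307 probe sets, 3177 were called. Of the called partners ID2 had the widest gap with a log2 ratio of -4.61.

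Genes known as targets of the circuit or of NOTCH1 in T cell leukaemia lines or thymocytes were 28, of which 26 were measured, and LEF1 stood in both lists. None was called in nsEP against sham by limma, and none was at an unadjusted p under 0.05 either. In heat shock against sham 5 of the 26, each read at its brightest probe set, were called, 2 higher and 3 lower. Over all probe sets, dim ones included, 4.17% were called, and in the fit of only the brighter 27307, 2717 were called. The median log2 ratio of the 26 was 0.04 in nsEP against sham and -0.18 in heat shock against sham, against -0.01 and 0.18 over all probe sets. Over the brightest quartile the median in heat shock against sham was -0.03. HES1, a repressor that NOTCH1 switches on, gave 10.65, 10.16 and 10.47 in nsEP, 13.06, 13.48 and 13.97 in heat shock and 9.65, 10.82 and 9.60 in sham. It rose by a log2 ratio of 3.48 ± 0.31 (SE) in heat shock against sham (limma adjusted p = 5.30e-05), and all 3 of its probe sets were called. CD2, an adhesion receptor of T cells, gave 12.11, 12.53 and 12.22 in nsEP, 10.51, 10.77 and 10.33 in heat shock and 12.25, 12.50 and 12.23 in sham. Its heat shock arrays lay below all others, and it fell by 1.79 on the log2 scale (limma adjusted p = 7.39e-05).

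BCL6, a repressor of lymphocyte differentiation genes, gave 7.76, 7.62 and 7.81 in nsEP, 9.34, 9.34 and 9.07 in heat shock and 7.90, 7.25 and 7.001 in sham. It rose by a log2 ratio of 1.87 in heat shock against sham (limma adjusted p = 0.00109), and by 0.85 at an adjusted p of 0.298 after scaling to the spike-ins. TRAF3, an adaptor of receptor signalling, gave 10.98, 11.67 and 10.71 in nsEP, 10.25, 10.74 and 9.75 in heat shock and 11.12, 11.53 and 11.30 in sham. It fell by 1.07 on the log2 scale in heat shock against sham (limma adjusted p = 0.0445), and this was kept in 1 of 6 fits that left out 1 array. NOTCH3, a receptor of the NOTCH family, was the other gene called lower, at -0.94. The 2 genes with the smallest p in nsEP against sham, RAG2 of the recombinase at -0.92 and the cell cycle inhibitor CDKN1A at 0.95, did not pass, at adjusted p of 0.786 and 0.818. In nsEP against heat shock 3 targets were called, CD2 higher at 1.75, and HES1 at -3.07 and BCL6 at -1.52 lower. Over all probe sets, dim ones included, 4.96% were called, and in the fit of only the brighter 27307 probe sets, 3177 were called.

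**Figure D4:**
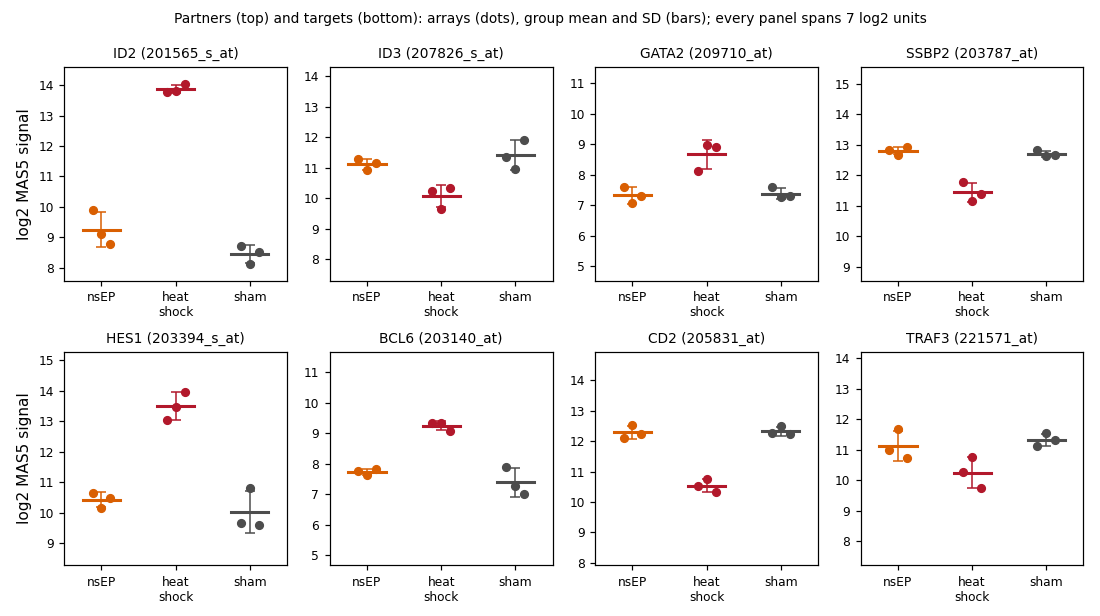
Log2 MAS5 signal on each array (dots) with the group mean and SD (bars, n = 3) for 4 partners in the top row and 4 targets in the bottom row, ordered nsEP, heat shock and sham, each panel spanning 7 log2 units. ID2 at a mean of 13.87 and HES1 at 13.50 in heat shock stand above sham means of 8.45 and 10.02, and CD2 at 10.54 in heat shock stands below its sham mean of 12.33.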

How the data were processed

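The deposited values were log2 of each probe set's MAS5 signal, computed by the authors, with 1 column for each of the 9 arrays and 0 columns of no sample. Per the labels MAS5 was the only tool named, and detection calls were not used here. Probe sets were named through the platform's probe table, so 41091 had 1 symbol, 1801 had several and 11721 had none after 62 Affymetrix controls were set aside. A single model over the 9 arrays, made with limma 3.58.1 (R 4.3.3), estimated a mean for each group with a variance trend and used Benjamini-Hochberg adjustment over 54613 probe sets. The fit was tested on simulated data. With 3 arrays against 3, an exact permutation test cannot go below 0.1, so none is given, and the number of arrays limits the precision.

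Members and lists were chosen with earlier results of these data known. Values on every array were given for the brightest probe set of each gene and for each called one, and for up to 4 called genes of a list, otherwise the 2 with the smallest p. Quartiles were set on the mean signal over all arrays. Alternatives were limma without the trend, only the 6 arrays compared, quantile normalization, centring, scaling to the poly-A spike-ins, 32 signal units added before log2, dim probe sets left out, array weights, the replicate number as a block, the methods' t-test with Benjamini-Hochberg adjustment, and leaving out each array. Promoters came from RefSeq (GRCh38.p14), which gave entries for 9 of the 10 genes, all but LMO2.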

Additional observations from a re-analysis of the deposited data

How the results depend on the processing

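For heat shock against sham, 4 of the 33 probe sets were called, against 0 without the variance trend, 0 by the methods' t-test and 1 to 2 when 1 array was left out. For nsEP against heat shock, 3 were called, against 0 without the trend, 0 with only the 6 arrays compared, 1 after quantile normalization, 0 by the t-test and 0 to 2 when 1 array was left out. Over all probe sets, calls in heat shock against sham went from 2276 to 837 without the trend and 377 by the t-test. They were 1130 to 1421 when 1 array was left out, 2784 with the 6 arrays and 2482 with 32 units added. In nsEP against heat shock they went from 2707 to 1100 without the trend, 1882 with the 6 arrays and 124 by the t-test. They were 2361 after quantile normalization, 4792 after centring and 1343 to 4018 when 1 array was left out. Of the 13 probe sets listed with RUNX1, 1 was called in heat shock against sham, against 0 without the trend, 2 with only the 6 arrays compared, 2 with 32 signal units added, 0 by the t-test and 0 to 1 when 1 array was left out. In nsEP against heat shock 1 of the 13 was called, against 0 without the trend, 0 with the 6 arrays, 0 after quantile normalization, 2 after centring, 0 with dim probe sets left out, 0 by the t-test and 0 to 1 when 1 array was left out. Calls in nsEP against sham stayed at 0 of 33 in all of these alternatives, where only 0 to 63 of all probe sets were called. Scaling moved the median of all probe sets in heat shock against sham from 0.18 to -0.01 by quantile normalization, -0.13 by centring and -0.83 with the spike-ins, and changes read relative to it. MYB 215152_at reversed in heat shock against sham, at -0.18, with the spike-ins, whose mean was 11.46 in heat shock and 10.45 in sham. That scaling lowered the ratio of every probe set in this comparison by the same amount. Why the spike-ins differed between the groups was not tested. Over 84 log2 ratios and 1338 alternative values, 1182 kept their side of the threshold, 121 lost and 34 gained a call, and 73 changed sign without being called in either fit. Of the partners and targets in heat shock against sham, ID2 and CD2 were called in all 10 alternatives other than leaving out 1 array, and in those 6 as well, while the methods' t-test lost HES1 (adjusted p = 0.0853), SSBP2, ID3, RUNX2, BCL6, GATA2 and TRAF3. Limma without the trend also lost ID3, RUNX2, GATA2 and TRAF3, the spike-ins lost BCL6 and GATA2, and quantile normalization lost TRAF3. Deviations of same-numbered arrays correlated at -0.16 to 0.21 and those of different-numbered arrays at -0.26 to 0.24. Of the 9 arrays 3 correlated best with their own number. No pairing by replicate number was thus seen, but with 3 arrays in a group this check cannot exclude it. With the replicate number as a block, 4 of the 33 were called in heat shock against sham, 3 in nsEP against heat shock and 0 in nsEP against sham. Dim signal limits LMO2 and most probe sets listed with RUNX1.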
